A study of Mus musculus with 4 samples.

Results

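The genes described here are 38 of the 54532 genes in the deposited table. They encode enzymes of cholesterol and fatty acid synthesis, regulators of the transcription factors called SREBPs, and targets of the liver X receptors (LXRs). They were chosen by name, with no threshold on measured values but with earlier results of these data known. All 38 were found by symbol. They fall into 7 mevalonate and isoprenoid enzymes, 11 squalene and sterol enzymes, 4 SREBP regulators and sterol transport genes, 11 fatty acid synthesis enzymes, and 5 LXR and cholesterol efflux genes. RNA sequencing was done on total RNA of cells labelled MSCs, from CB6F1 mice, an F1 hybrid strain. The cells came from digested, unfractionated bone marrow and were grown in high-glucose DMEM with serum and antibiotics. In the R group (2 libraries) the cells were given a compound named only R in vitro, at 0.5 in a unit written "um", and in the vehicle group (2 libraries) they were given DMSO, the solvent. All 4 titles carry the term aGVHD, and age, time of treatment and any step that sorts cells are not given in the labels. The labels name no separate animals or cultures for the replicates, so each p-value measures only the spread between these libraries, which may be technical.

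Cholesterol is made from acetyl-CoA by way of mevalonate, isoprenoid units, squalene and lanosterol. When membrane sterol is low, SREBPs are cut and enter the nucleus, where Srebf2 protein acts mainly on sterol genes and Srebf1 protein mainly on fatty acid genes, while Insig1 protein holds them back when sterol is plentiful. Oxysterols activate LXRs, which raise the genes for cholesterol export, and macrophages, which take up much lipid, are well known for that arm. Stromal cells of the marrow can make fat and carry out both kinds of synthesis.

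The promoter sequences of 4 members are shown because SREBPs act through short motifs there, together with the CCAAT-binding factor NF-Y, and because Nsdhl, Hsd17b7 and Gpam are described at length below and Hmgcs1 has the only SRE found. They are the bases before the RefSeq start of each gene (GRCm38.p6), written on the gene's strand, 250 bases for each except Hsd17b7, where 214 bases are given because the rest lies within an annotated exon. Capitals mark the SRE (TCACNCCAC), the E-box (CACGTG) and the CCAAT box, each searched on both strands, so that a CCAAT box on the opposite strand reads ATTGG. The windows are chr13:119690101-119690350 on the plus strand for Hmgcs1, chrX:72918271-72918520 on the plus strand for Nsdhl, chr1:169969242-169969455 on the minus strand for Hsd17b7 and chr19:55127239-55127488 on the minus strand for Gpam.
Hmgcs1: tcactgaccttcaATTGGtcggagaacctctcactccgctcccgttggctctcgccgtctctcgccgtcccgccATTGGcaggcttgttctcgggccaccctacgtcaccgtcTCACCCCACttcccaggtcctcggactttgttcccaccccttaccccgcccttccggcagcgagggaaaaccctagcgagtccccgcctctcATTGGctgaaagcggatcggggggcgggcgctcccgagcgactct
Nsdhl: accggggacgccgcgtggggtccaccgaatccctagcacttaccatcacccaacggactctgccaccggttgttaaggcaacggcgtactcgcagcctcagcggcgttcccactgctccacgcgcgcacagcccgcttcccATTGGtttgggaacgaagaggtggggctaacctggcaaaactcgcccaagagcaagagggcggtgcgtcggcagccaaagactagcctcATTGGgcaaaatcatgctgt
Hsd17b7: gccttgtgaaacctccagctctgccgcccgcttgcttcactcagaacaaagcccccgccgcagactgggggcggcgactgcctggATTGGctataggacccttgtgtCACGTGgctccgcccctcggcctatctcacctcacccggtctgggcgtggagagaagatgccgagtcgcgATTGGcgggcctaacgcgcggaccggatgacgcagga
Gpam: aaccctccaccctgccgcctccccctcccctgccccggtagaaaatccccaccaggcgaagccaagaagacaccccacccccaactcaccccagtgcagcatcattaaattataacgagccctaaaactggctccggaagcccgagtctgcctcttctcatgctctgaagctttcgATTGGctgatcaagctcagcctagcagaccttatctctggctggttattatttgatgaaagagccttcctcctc

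A RefSeq promoter was matched for 30 of the 38 members. In the 250 bases upstream, a CCAAT box was found in 21 of 30 members (70.0%), against 33.8% of all 32851 windows in the table and 36.6% of the 8894 tested genes with a window. By role, the CCAAT box was found in 5 of 6 mevalonate enzymes, 8 of 9 sterol enzymes, 3 of 3 SREBP regulators, 4 of 8 fatty acid enzymes and 1 of 4 LXR and efflux genes. The E-box was found in 5 of 30 members (16.7%), namely Hsd17b7, Sc5d, Insig1, Elovl5 and Abca1, against 6.02% of all windows and 8.65% of tested genes. The SRE was found in 1 of 30 members, Hmgcs1, against 1.05% of all windows and 0.978% of tested genes. A match is a string of letters in a window, and in the printed windows no match overlaps another. Only exact matches were counted, so sites that differ from these letters at any base were missed.

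Values are FPKM, read abundance per gene length and library size, and 1 FPKM on a gene of 2 kb corresponded to about 36.5 reads. Reads recovered from the table were 16576055 to 18140519 per library. Macrophage and stromal markers were both present: none of 27 markers on either list was at 0 in all libraries. The 27 macrophage and monocyte markers summed to 17570 and 13644 FPKM in R and 25917 and 23234 FPKM in vehicle, and 24 of 26 tested were lower in R on the mean, 4 of them by limma at an adjusted p under 0.05. The 27 stromal markers summed to 4154 and 3872 FPKM in R and 3271 and 3198 FPKM in vehicle, with Lepr and Thy1 below 1 FPKM. Of 25 tested stromal markers, 19 were higher and 6 lower in R on the mean, and the only call was Ly6a, lower in R (log2 difference -1.71, adjusted p = 0.0113 in limma). The 12 adipocyte markers summed to 168 and 150 FPKM in R and 107 and 103 FPKM in vehicle, with Lep and Pck1 at 0 and Plin1, Cfd, Cidec and Retn below 1 FPKM. Their median over the list went the other way, at 1.46 and 1.29 FPKM in R and 1.83 and 1.76 FPKM in vehicle. Of 6 tested adipocyte markers, 4 were higher and 2 lower in R on the mean, and 0 were called. At 0 in all libraries were 5 of 10 neutrophil, 7 of 12 T and NK, 1 of 8 B cell, 4 of 8 erythroid and 0 of 9 endothelial markers. The endothelial markers summed to 32.2 and 28.3 FPKM in R and 29.5 and 27.4 FPKM in vehicle. The B cell markers summed to 22.2 and 21.4 FPKM in R and 22.2 and 21.2 FPKM in vehicle. The part of these differences in the results below was not tested, and in such bulk samples fewer cells of a type and less RNA per cell cannot be told apart.

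Sterol and fatty acid genes were detected in every library. No member was called higher or lower in the fit without a replicate block, and the calls with that block, given at the end, differ. Of 37 members with a mean of at least 1 FPKM, limma without the block called 0 at a Benjamini-Hochberg adjusted p under 0.05. Over all 12176 tested genes, 0.345% rose and 1.37% fell. An unadjusted p under 0.05 was found for 2 members, Msmo1 and Nsdhl, both lower in R, against 16% of all tested genes. With limma-voom on the recovered reads, 0 of 30 members were called and 2 had an unadjusted p under 0.05, against 1906 of 11564 tested genes. Gpam, Scd1, Scd2, Fads1, Fads2, Tm7sf2 and Abcg1 were not in that fit, because their values did not give whole reads. The log2 difference, R minus vehicle on the log2(FPKM + 1) scale, was above 0 for 19 members and below 0 for 18, with a median of 0.01 over the members and a median size of 0.18, against 0.16 over all tested genes. The 2 R values lay above both vehicle values in 10 members (22.7% of all tested genes) and below both in 8 members (25.2% of all tested genes). The 95% interval of the log2 difference lay within 1 of 0 for 36 of 37 members, Gpam being the exception, so on this scale a 2-fold change lies outside the intervals of the others. For 16 members it lay within 0.5 of 0, and for 21 it did not.

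**Figure D1:**
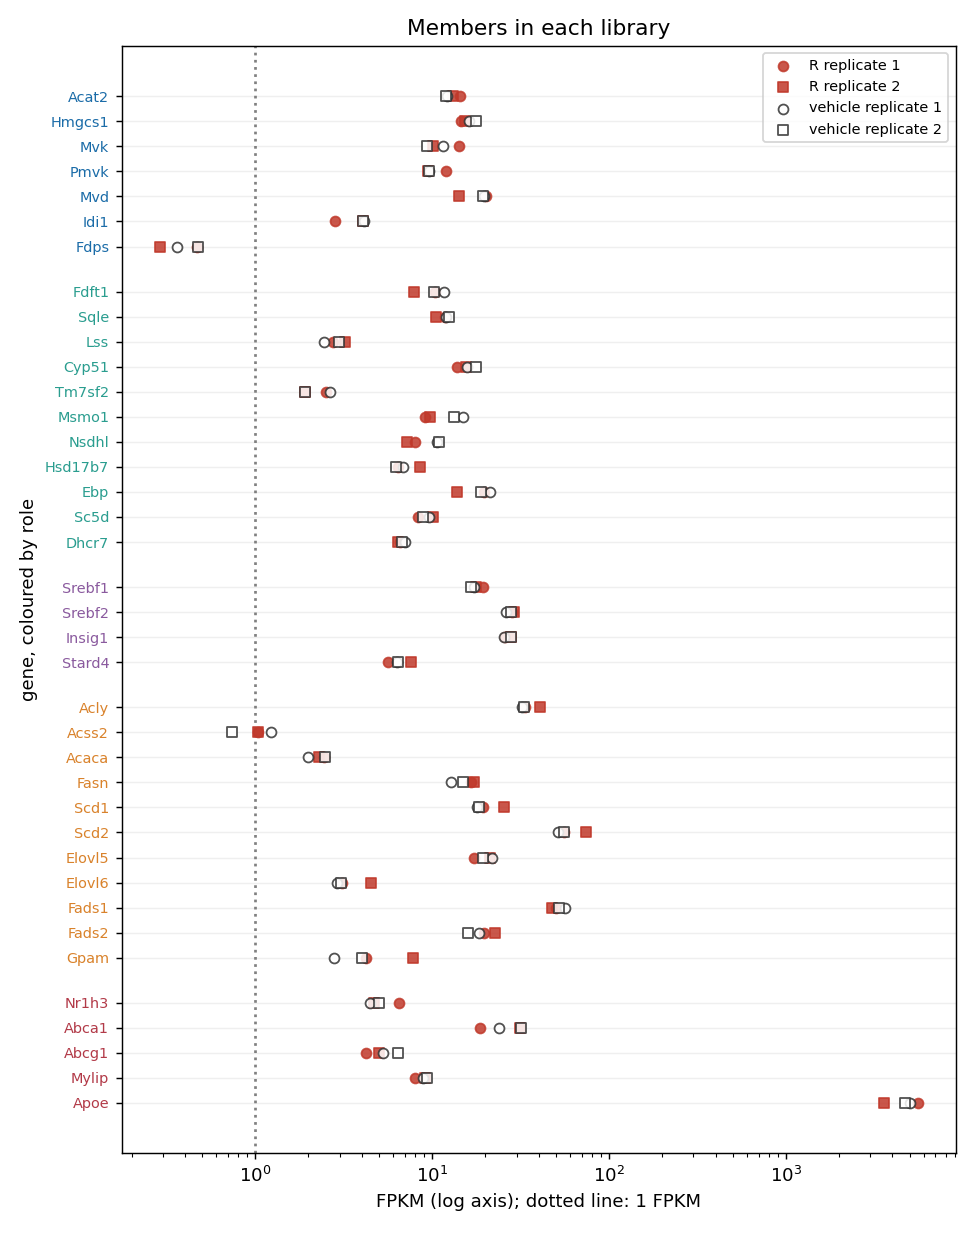
Level of each of the 38 members in each of the 4 libraries, in FPKM on a log axis, grouped by role (colour of the gene name). Filled symbols are R and open symbols vehicle, and the dotted line is 1 FPKM. Most symbols of a gene lie close together, Apoe stands at the right edge, Fdps lies below 1 FPKM, and Msmo1 and Nsdhl show both R symbols to the left of both vehicle symbols.

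The levels of the members covered a wide range. Apoe, which encodes the lipid carrier apolipoprotein E, ranked 3 among all genes by mean FPKM, with 139362 to 228860 reads per library. Next came Scd2, a stearoyl-CoA desaturase, at rank 825, and Fads1, a fatty acid desaturase, at rank 988. The lowest tested member was Acss2, which makes acetyl-CoA from acetate, at a mean of 1.01 FPKM, and Fdps was lower still at 0.399 FPKM. Over the 4 libraries, the highest value divided by the lowest was 2.79 for Gpam and 1.71 for Abca1, and 1.10 for each of Insig1 and Dhcr7.

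In the mevalonate and isoprenoid branch, 0 of 6 tested enzymes were called and the smallest adjusted p in limma was 0.529. Acat2, which joins acetyl-CoA units at the start of the route, was at 14.3 and 13.2 FPKM in R and 12.1 and 11.9 FPKM in vehicle. Both R values lay above both vehicle values, with a log2 difference of 0.18 (SE 0.117, adjusted p = 0.529 in limma). The Acat2 transcript shares 97.7% of 1477 bases with Acat3, listed below 1 FPKM, and 445 bases with Tcp1 on the opposite strand, a chaperonin gene at 37.003 and 34.68 FPKM in R and 39.4 and 38.2 FPKM in vehicle. Hmgcs1, at chr13:119690379-119708260, encodes the HMG-CoA synthase that feeds the mevalonate step. Its values were 14.5 and 15.3 FPKM in R and 16.1 and 17.8 FPKM in vehicle, so both R libraries lay below both vehicle libraries. The log2 difference was -0.17 (SE 0.122, 95% interval -0.47 to 0.13, adjusted p = 0.562 in limma). Idi1, the isomerase of the isoprenoid units, was at 2.82 and 4.07 FPKM in R and 4.11 and 4.05 FPKM in vehicle. Its low value was that of R replicate 1, and the groups overlapped (log2 difference -0.21, adjusted p = 0.619 in limma). Mvk, Pmvk and Mvd, the kinases and the decarboxylase between mevalonate and the isoprenoid units, had log2 differences of 0.19, 0.14 and -0.18, and their groups overlapped.

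Fdps, the farnesyl diphosphate synthase, was at 0.468 and 0.289 FPKM in R and 0.364 and 0.477 FPKM in vehicle, from 22 to 38 reads, and was not tested. Its reads are uncertain, because its transcript is near-identical to those of other genes. The processed pseudogene Gm3571 shares 98.9% of 1062 bases with it and was at 6.84 and 4.17 FPKM in R and 3.90 and 3.89 FPKM in vehicle. The processed pseudogene Gm5873, with 96.7% of 1066 bases, was at 1.07 and 0.726 FPKM in R and 1.70 and 1.88 FPKM in vehicle. Gm43738, a protein-coding gene model, overlaps 7512 bases of the Fdps gene and was listed at 0. How reads were split among these genes is not given in the sources used here.

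The lowest R values relative to vehicle among the members were those of the 2 sterol enzymes Msmo1 and Nsdhl. Neither passed the adjusted test in the fit without a replicate block. Both act in the removal of the methyl groups at carbon 4 of the sterol ring, Msmo1 as the oxidase that starts it and Nsdhl as the decarboxylating dehydrogenase that follows. Msmo1 (ENSMUSG00000031604, chr8:64718139-64733792, minus strand) was at 9.09 and 9.67 FPKM in R and 14.9 and 13.2 FPKM in vehicle. Both R libraries were below both vehicle libraries, with means of 9.38 ± 0.410 and 14.1 ± 1.18 FPKM (SD, n = 2 each), a ratio of 0.667. The log2 difference was -0.53 (SE 0.124, 95% interval -0.84 to -0.23), with an unadjusted p of 0.00536 and an adjusted p of 0.114 in limma.

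Nsdhl (ENSMUSG00000031349, chrX:72918557-72958514, plus strand) was at 8.01 and 7.21 FPKM in R and 10.7 and 11.0 FPKM in vehicle. The groups did not overlap, with means of 7.61 ± 0.567 and 10.8 ± 0.218 FPKM (SD, n = 2 each), a ratio of 0.704. The log2 difference was -0.46 (SE 0.120, 95% interval -0.75 to -0.16), with an unadjusted p of 0.00932 and an adjusted p of 0.147 in limma. Across the 14 processing settings tried, Msmo1 stayed between -0.61 and -0.41 and Nsdhl between -0.52 and -0.33 on the log2 scale. Without R replicate 1, Nsdhl had a log2 difference of -0.52 (adjusted p = 0.0484 in limma), in a fit that assumes the lone R library varies like the vehicle libraries, which lay closer together than the R libraries. Hsd17b7, the keto-reductase that completes the same demethylation, was at 6.38 and 8.52 FPKM in R and 6.86 and 6.26 FPKM in vehicle. Its R libraries lay on either side of vehicle replicate 1, and the log2 difference was 0.15 (SE 0.160, 95% interval -0.25 to 0.55, adjusted p = 0.711 in limma). The promoters of Nsdhl and Hsd17b7 printed above both hold the CCAAT box, and that of Hsd17b7 also the E-box.

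Among all 11 squalene and sterol enzymes, 0 were called, 9 had a log2 difference below 0 and 2 above, and both R values lay below both vehicle values in 5 (25.2% of all tested genes) and above both in 0 (22.7% of all tested genes). Their median log2 difference was -0.12, against 0.00 over all tested genes. Sqle, the squalene epoxidase, was at 11.8 and 10.5 FPKM in R and 12.0 and 12.5 FPKM in vehicle. Its R values were the 2 lowest, by a log2 difference of -0.12 (SE 0.122, 95% interval -0.42 to 0.18, adjusted p = 0.687 in limma). Fdft1, the squalene synthase, was at 10.4 and 7.90 FPKM in R and 11.6 and 10.3 FPKM in vehicle. Its groups overlapped (log2 difference -0.24, SE 0.161, adjusted p = 0.540 in limma), and without R replicate 2 the log2 difference was -0.06. Fdft1 overlaps 774 bases of Ctsb on the opposite strand, and Ctsb, which encodes a lysosomal protease, stood at 1407 and 1221 FPKM in R and 2160 and 2105 FPKM in vehicle. Whether the counting used strand is not given in the sources used here, so reads of the 2 genes may not be told apart. The other 7 sterol enzymes, Lss, Cyp51, Tm7sf2, Ebp, Sc5d, Dhcr7 and Hsd17b7, had log2 differences from -0.28 (Ebp, the sterol isomerase) to 0.15 (Hsd17b7).

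The regulators of the pathway were close to level between the groups. Srebf2, the SREBP gene of sterol synthesis, was at 28.2 and 28.9 FPKM in R and 26.07 and 27.99 FPKM in vehicle. Both R values exceeded both vehicle values by a small margin, with a log2 difference of 0.08 (SE 0.119, 95% interval -0.22 to 0.37, adjusted p = 0.808 in limma). Srebf1, the SREBP gene of fatty acid synthesis and itself an LXR target, was at 19.3 and 17.7 FPKM in R and 17.4 and 16.7 FPKM in vehicle. Its groups did not overlap either, and the log2 difference was 0.11 (SE 0.120, 95% interval -0.18 to 0.41, adjusted p = 0.708 in limma). Insig1, both a brake on SREBPs and one of their targets, was at 25.98 and 27.99 FPKM in R and 25.61 and 28.09 FPKM in vehicle. The R values lay between the vehicle values, and the 95% interval of the log2 difference ran from -0.30 to 0.31. Stard4, a carrier of cholesterol through the cytosol, was at 5.62 and 7.62 FPKM in R and 6.34 and 6.41 FPKM in vehicle. Its R libraries were the lowest and the highest (log2 difference 0.03, adjusted p = 0.944 in limma), and the sign turned to -0.16 without R replicate 2. All 4 SREBP regulator and sterol transport genes were tested and 0 were called.

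**Figure D2:**
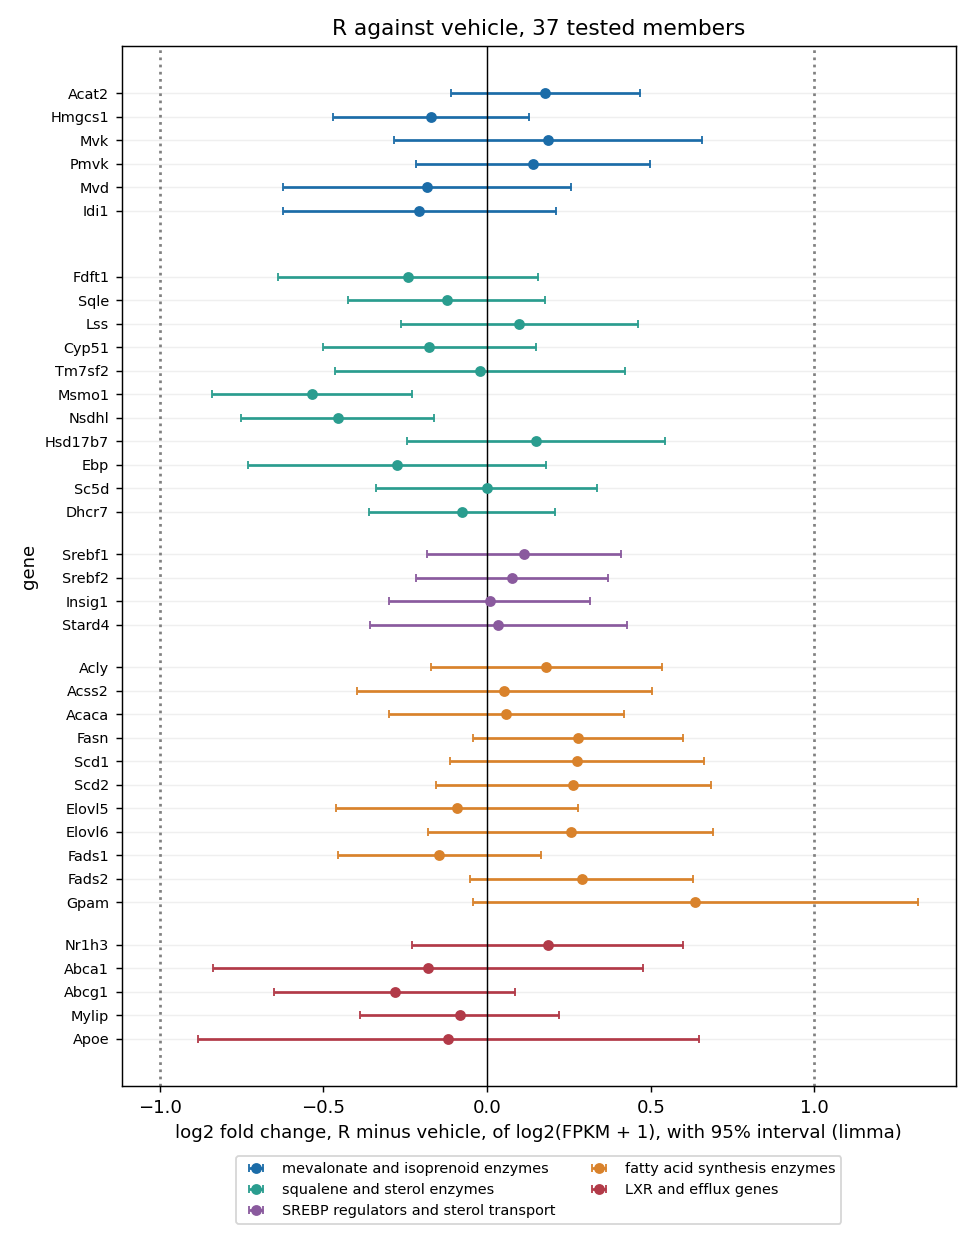
Log2 difference of each of the 37 tested members, R minus vehicle on the log2(FPKM + 1) scale, with its 95% interval from limma as a bar, coloured by role. The solid line is 0 and the dotted lines are 1 and -1. The bars of Msmo1 and Nsdhl lie wholly below 0, the bar of Gpam alone reaches past 1, and the other 34 bars span 0 within the dotted lines.

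The fatty acid synthesis enzymes had mostly higher means in R, and 0 of 11 were called. The log2 difference was above 0 in 9, both R values lay above both vehicle values in 7 (22.7% of all tested genes) and below both in 1 (25.2% of all tested genes), and the median log2 difference was 0.26. R replicate 2 gave the highest value in 7 of the 11 enzymes and vehicle replicate 1 the lowest in 7. The median depended on that library: relative to the median of all tested genes it was 0.07 without R replicate 2 and 0.33 without R replicate 1.

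Gpam (ENSMUSG00000024978, chr19:55067268-55127238, minus strand), the mitochondrial acyltransferase that starts glycerolipid synthesis, had the largest log2 difference of the members. It was at 4.22 and 7.79 FPKM in R and 2.80 and 3.9996 FPKM in vehicle. R replicate 2 stood well above the other libraries, while R replicate 1 was only just above vehicle replicate 2. The means were 6.004 ± 2.52 and 3.40 ± 0.851 FPKM (SD, n = 2 each), a ratio of 1.77. The log2 difference was 0.64 (SE 0.276, 95% interval -0.04 to 1.32, unadjusted p = 0.0615, adjusted p = 0.341 in limma). It was 0.26 without R replicate 2 (adjusted p = 0.448 in limma), and 1.01 without R replicate 1 (adjusted p = 0.0487 in limma). The latter sets the high library alone against vehicle, with a spread taken from the vehicle libraries only. Its promoter, printed above, holds a CCAAT box and no exact match to the other motifs.

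Fasn, the fatty acid synthase, was at 16.7 and 17.2 FPKM in R and 12.7 and 14.9 FPKM in vehicle. Both R values lay above both vehicle values, with a log2 difference of 0.28 (SE 0.130, 95% interval -0.04 to 0.60, adjusted p = 0.374 in limma). Fads2, the desaturase that begins the route to long polyunsaturated fatty acids, was at 19.7 and 22.7 FPKM in R and 18.35 and 16.003 FPKM in vehicle. These groups did not overlap (log2 difference 0.29, SE 0.138, 95% interval -0.05 to 0.63, adjusted p = 0.382 in limma). Fads1, the neighbouring desaturase gene, had a log2 difference of the other sign, -0.15 (adjusted p = 0.637 in limma), and both of its R values lay below both vehicle values. Whether these genes differ from each other in their response was not tested.

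Scd1 and Scd2 encode stearoyl-CoA desaturases, which make monounsaturated fatty acids. Scd1 was at 19.4 and 25.4 FPKM in R and 17.9 and 18.5 FPKM in vehicle, and Scd2 at 55.9 and 73.7 FPKM in R and 51.3 and 55.4 FPKM in vehicle. In each gene R replicate 2 was the high library and R replicate 1 lay close above the vehicle libraries. The log2 differences were 0.27 for Scd1 (SE 0.157, adjusted p = 0.469 in limma) and 0.26 for Scd2 (SE 0.170, adjusted p = 0.523 in limma). Without R replicate 2 they were 0.09 and 0.07. The transcripts of Scd1 and Scd2 share 95.5% of 623 bases, so reads there may be split between them. The other 5 enzymes, Acly, Acss2, Acaca, Elovl5 and Elovl6, had log2 differences from -0.09 (Elovl5) to 0.26 (Elovl6), and Acaca shares 99.2% of 6118 bases with the processed pseudogene Gm5182.

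Of the 5 LXR and efflux genes, 0 were called, and 1 had a log2 difference above 0 and 4 below. Both R values lay below both vehicle values in 1 (25.2% of all tested genes) and above both in 0 (22.7% of all tested genes). Nr1h3, which encodes the LXR of macrophages and liver, was at 6.47 and 4.70 FPKM in R and 4.46 and 5.03 FPKM in vehicle. R replicate 1 was high and R replicate 2 lay between the vehicle libraries (log2 difference 0.19, SE 0.168, 95% interval -0.23 to 0.60, adjusted p = 0.659 in limma). The sign turned to -0.01 without R replicate 1.

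Abca1 (chr4:53030787-53159895, minus strand), the transporter that loads cholesterol onto lipid-poor apolipoproteins, was at 18.6 and 31.2 FPKM in R and 23.8 and 31.7 FPKM in vehicle. The groups overlapped, with replicate 1 the lower library of each. The log2 difference was -0.18 (SE 0.267, 95% interval -0.84 to 0.48, adjusted p = 0.797 in limma), and it was 0.18 without R replicate 1 and 0.02 without vehicle replicate 2. Abcg1, the transporter that passes cholesterol to mature lipoproteins, was at 4.21 and 5.03 FPKM in R and 5.27 and 6.40 FPKM in vehicle. Both R values lay below both vehicle values, with a log2 difference of -0.28 (SE 0.149, 95% interval -0.65 to 0.09, adjusted p = 0.428 in limma).

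Mylip, the ubiquitin ligase through which LXRs lower lipoprotein receptors, was at 8.05 and 9.08 FPKM in R and 8.87 and 9.38 FPKM in vehicle. These groups overlapped (log2 difference -0.08, adjusted p = 0.795 in limma). Apoe (ENSMUSG00000002985, chr7:19696109-19699188, minus strand) was at 5547 and 3603 FPKM in R and 5034 and 4683 FPKM in vehicle. The R libraries were the highest and the lowest, and the means were 4575 ± 1374 and 4859 ± 248 FPKM (SD, n = 2 each). The log2 difference of Apoe was -0.12 (SE 0.311, 95% interval -0.88 to 0.65, adjusted p = 0.891 in limma), and it was 0.19 without R replicate 2. Its SE was above the median SE of 0.148 over all tested genes, at the highest read numbers of all members.

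Synthesis and efflux genes were set side by side as the median log2 difference of each list. The 28 tested synthesis enzymes had a median of 0.03, with 14 above 0 and 14 below, and the 5 LXR and efflux genes had a median of -0.12. On the TPM scale, where the median of all tested genes was 0.13, these medians were 0.16 and 0.015, so that of the LXR and efflux genes changed sign, while relative to all tested genes they were 0.04 and -0.11. Within synthesis, the sterol enzymes had a median of -0.12 (-0.13 relative to all tested genes on the TPM scale) and the fatty acid enzymes one of 0.26 (0.27 relative to them on that scale). In single libraries, as differences from each gene's mean over the 4 libraries, the median of the synthesis enzymes was -0.03 and 0.01 in R and 0.02 and -0.04 in vehicle, so the groups overlapped. That of the LXR and efflux genes was -0.12 and -0.03 in R and 0.01 and 0.08 in vehicle, a gap between the groups smaller than the spread within R. The median of the sterol enzymes was -0.03 and -0.14 in R and 0.06 and 0.05 in vehicle, and that of the fatty acid enzymes -0.05 and 0.23 in R and -0.14 and -0.08 in vehicle. The macrophage markers, measured the same way, were at -0.19 and -0.47 in R and 0.33 and 0.26 in vehicle. The stromal markers were at 0.01 and 0.18 in R and -0.08 and -0.09 in vehicle, and their part in the lists' values was not tested.

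**Figure D3:**
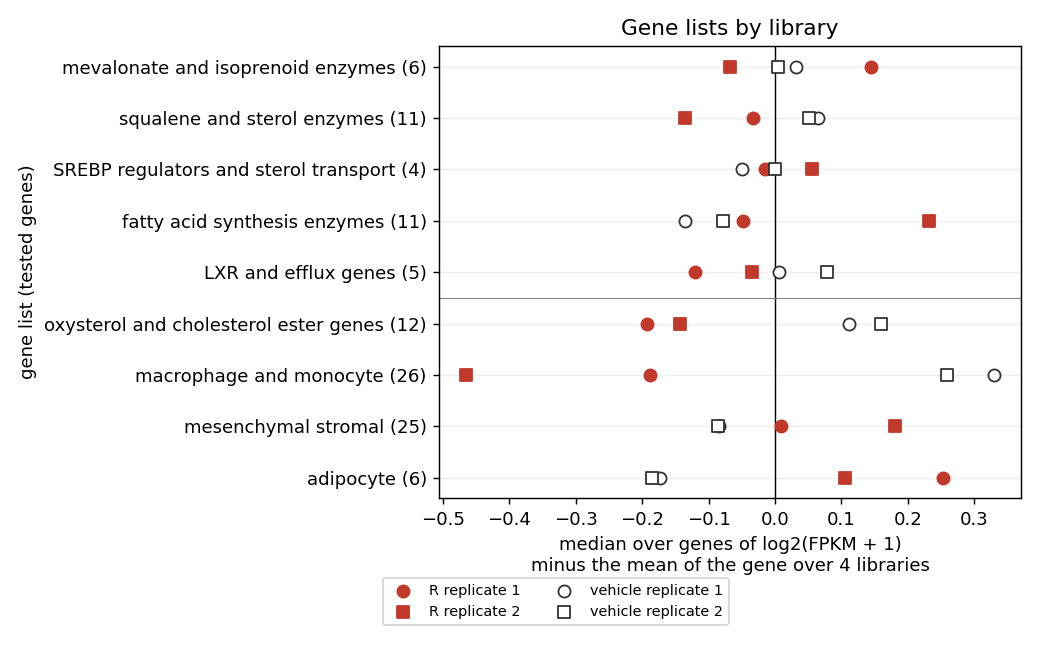
Median over the tested genes of each list (number in brackets) of log2(FPKM + 1) minus the gene's mean over the 4 libraries, for each library. Filled symbols are R, open symbols vehicle, circles replicate 1 and squares replicate 2. The member lists lie within about 0.2 of 0 apart from the fatty acid enzymes in R replicate 2 at 0.23, and the macrophage markers span from -0.47 to 0.33.

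Spread between replicates was wider in R than in vehicle, and it varied with gene length. The median size of the log2 difference between replicates over the 37 tested members was 0.25 in R and 0.12 in vehicle, and over all tested genes 0.23 and 0.11. Across the 37 members, the difference R replicate 1 minus R replicate 2 had a Pearson r of -0.51 and a Spearman rho of -0.50 with log2 gene length. Across 12173 tested genes r was -0.41 and rho -0.54. For vehicle replicate 1 minus replicate 2, r was -0.38 and rho -0.41 across the members, and -0.23 and -0.38 across all tested genes. These values are across genes, which share the same libraries and are not replicates. The members at the extremes in R were Gpam and Abca1 at -0.75 and -0.72, and Apoe, Mvd and Ebp at 0.62, 0.47 and 0.47. Of the tested members longer than Gpam, Abca1 and Abcg1 were at -0.72 and -0.21. Lss, Fasn and Srebf2 were at -0.17, -0.04 and -0.04, and Acaca and Acss2 at 0.07 and 0.00087. With a length trend removed from each library, 0 of 37 members were called by limma and 4 had an unadjusted p under 0.05. In that fit 2745 of 12173 tested genes had an unadjusted p under 0.05, a larger share. The adjusted p in limma was then 0.0537 for Msmo1 and 0.0637 for Nsdhl.

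**Figure D4:**
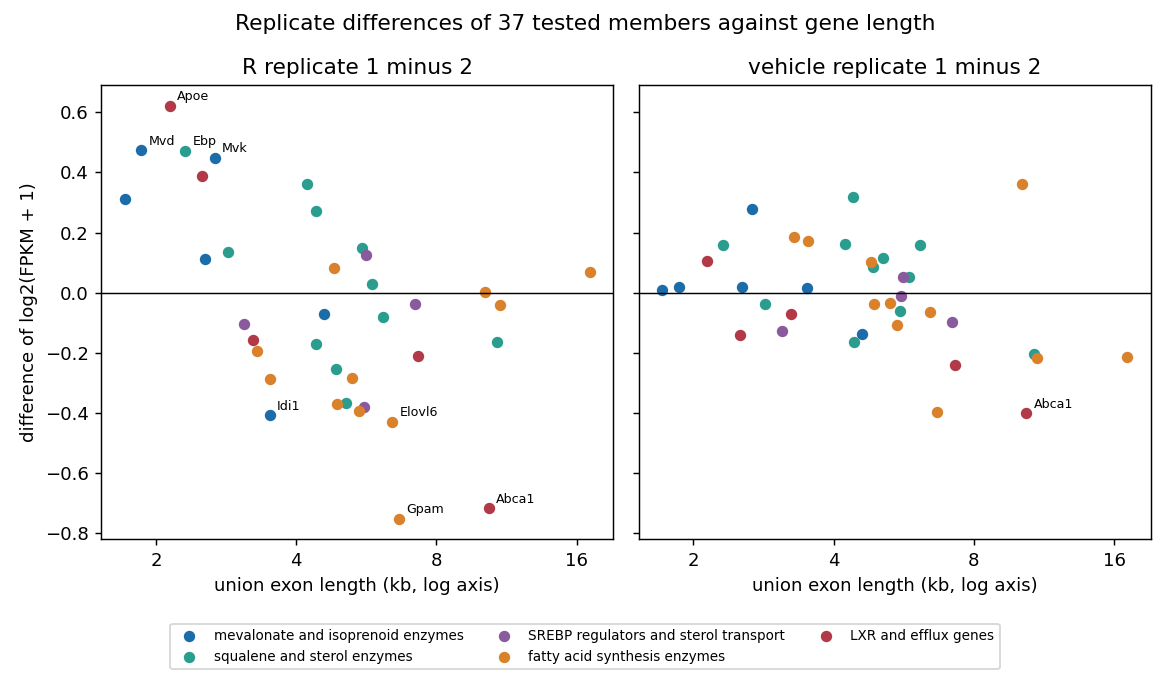
Difference of log2(FPKM + 1) between replicate 1 and replicate 2 in R (left) and vehicle (right) against union exon length in kb on a log axis, for the 37 tested members coloured by role. In R the points run from Apoe at 0.62 to Gpam at -0.75 and Abca1 at -0.72, while the longest gene, Acaca, is at 0.07, and in vehicle the points span a narrower range.

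Other genes of lipid metabolism were taken from 7 further lists with 112 genes in all. Among 11 tested genes of other sterol and isoprenoid synthesis, 0 were called, and the smallest p was that of Icmt, which methylates prenylated proteins, at 13.6 and 15.2 FPKM in R and 11.7 and 12.4 FPKM in vehicle. Among 9 genes of SREBP processing, 0 were called. Scap, the escort protein of SREBPs, was at 11.7 and 10.1 FPKM in R and 8.84 and 9.42 FPKM in vehicle (adjusted p = 0.462 in limma). Both R values of each of these genes lay above both vehicle values. Among 21 tested genes of other fatty acid and glycerolipid synthesis, 0 were called, with Acsl1, an acyl-CoA synthetase, at 2.75 and 3.85 FPKM in R and 4.60 and 4.48 FPKM in vehicle (adjusted p = 0.339 in limma).

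Among 9 tested further LXR genes, 0 were called and 3 had an unadjusted p under 0.05 in limma (16% of all tested genes), all lower in R. The log2 difference was above 0 in 5 and below 0 in 4, with a median of 0.08. Both R values lay above both vehicle values in 3 (22.7% of all tested genes) and below both in 4 (25.2% of all tested genes). Smpdl3a, a phosphodiesterase gene placed on this list, was at 48.7 and 53.3 FPKM in R and 75.7 and 71.3 FPKM in vehicle. Its groups did not overlap, and the log2 difference was -0.52 (adjusted p = 0.132 in limma). Without R replicate 2, which leaves a lone R library, the adjusted p in limma was 0.0361. Of 12 tested oxysterol and cholesterol ester genes, 0 were called and 4 had an unadjusted p under 0.05 (16% of all tested genes). In 11 the log2 difference was below 0, with a median of -0.34, and both R values lay below both vehicle values in 8 (25.2% of all tested genes). Gramd1b, a sterol carrier between the plasma membrane and the endoplasmic reticulum, was at 7.47 and 7.96 FPKM in R and 9.75 and 10.2 FPKM in vehicle (log2 difference -0.33, adjusted p = 0.251 in limma). The macrophage markers given above were lower in R alongside these genes, and their part was not tested.

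Of 8 tested lipoprotein uptake receptors, 1 fell (1.37% of all tested genes) and 0 rose. An unadjusted p under 0.05 in limma was found for 3 (16% of all tested genes): Msr1, and Lrp1 and Stab1 with higher values in R. Lrp1, an endocytic lipoprotein receptor, was at 104.5 and 142.3 FPKM in R and 68.2 and 86.2 FPKM in vehicle (log2 difference 0.66, adjusted p = 0.204 in limma). Stab1, a scavenger receptor, had a log2 difference of 0.36 (adjusted p = 0.303 in limma). Both R values lay above both vehicle values in 3 of the 8 (22.7% of all tested genes) and below both in 2 (25.2% of all tested genes). Msr1, the class A scavenger receptor of macrophages, was at 8.62 and 9.69 FPKM in R and 17.0 and 17.6 FPKM in vehicle. The groups were far apart next to the spread within them, and the log2 difference was -0.85 (SE 0.122, adjusted p = 0.0366 in limma). The call was lost without vehicle replicate 1 (adjusted p = 0.0890), without vehicle replicate 2 (adjusted p = 0.0944), on the TPM scale (adjusted p = 0.104) and with no filter on low values (adjusted p = 0.148 in limma). Msr1 is also made mainly by the cells whose markers were lower in R, and that part was not tested. Of 22 tested fatty acid oxidation genes, 0 were called and 3 had an unadjusted p under 0.05 (16% of all tested genes), all higher in R. Acadvl, the dehydrogenase of very long acyl chains, was at 20.6 and 20.6 FPKM in R and 14.6 and 14.8 FPKM in vehicle, a log2 difference of 0.46 (SE 0.113, adjusted p = 0.128 in limma), with a median of 0.01 over its list.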

How the data were processed

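The deposited table gives FPKM per gene for 4 libraries, per the file headers. The builds GRCm38 and mm10, and edgeR 3.18.1 in a role not stated, are named per the submitters' processing notes. Aligner, counting tool and annotation: not given in the sources used here. The table has 10 other columns, all empty. Of its identifiers, 54495 matched GENCODE M21 and 37 did not. FPKM multiplied by union exon length gave whole reads, within 0.02, for 96.3 to 96.4% of values above 0.

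R was compared with vehicle on log2(FPKM + 1) in limma 3.58.1 (R 4.3.3), with a variance trend, for genes averaging 1 FPKM or more, with Benjamini-Hochberg adjustment over all 12176 of them. This scale understates the fold changes of low genes. The fit had 2 residual degrees of freedom, a prior of 3.83 and a median SE of 0.15 (log2). Scripts were tested on simulated data. Members, lists and motifs were chosen with earlier results of these data known. Named members are any called, the 3 of each role with the smallest p, and fixed genes (Hmgcs1, Sqle, Insig1, Srebf1, Srebf2, Fasn, Scd1, Scd2, Abca1, Abcg1, Nr1h3 and Apoe); Hsd17b7, Fdps, Fads1 and the values of a few others were added after their values were seen. Near-identical transcripts were sought at 90% identity over at least 300 bases. The alternatives were other pseudocounts, filters and scalings, voom on recovered reads, no variance trend, a length correction, a replicate block and each library left out.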

Additional observations from a re-analysis of the deposited data

How the results depend on the processing

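With 2 libraries in each group, intervals were wide: the 95% interval of a member's log2 difference reached from 0.28 to 0.77 to each side of it. Over 14 settings, 3 of the 37 tested members were called in any. Of the members, 20 kept their sign in every setting in which they were tested, 12 of them tested in all 14 and 8 in fewer. The number of genes called in all was 209, against 0 with no filter on low values (2767 at an unadjusted p under 0.05), 318 with limma-voom on recovered reads (83 higher, 235 lower), 555 with the length trend removed (209 higher, 346 lower) and 289 to 977 with each library left out, highest without R replicate 1. Members called ranged from 0 to 2 with each library left out, and were 2 without R replicate 1. Each such fit assumes that the lone library varies like the other group. The median log2 difference of the synthesis enzymes, 0.03, was -0.078 with a mean of at least 5 FPKM, 0.16 on the TPM scale, -0.046 with limma-voom and -0.068 to 0.028 with each library left out, lowest without vehicle replicate 2. That of the LXR and efflux genes, -0.12, was 0.015 on the TPM scale and -0.16 to -0.0092 with each library left out, nearest 0 without R replicate 1 and -0.048 without vehicle replicate 2. The TPM scale moved the median of all tested genes to 0.13, and relative to that the medians were 0.04 and -0.11. With a mean of at least 5 FPKM, 21 synthesis enzymes were tested instead of 28. Each of the 21 kept its log2 difference, so that median moved with the genes tested. With limma-voom, 22 were tested. That fit left out Gpam, Scd1, Scd2 and Fads2, which were above 0 in the main fit, and Fads1 and Tm7sf2, which were below 0. The cause of the other shifts was not tested.

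The titles number the replicates, and nothing says that equal numbers share an animal or a culture. Differences between replicates 1 and 2 in R and in vehicle correlated at 0.35 over genes, and r values with gene length are given above. With the replicate number as a block, limma called 1900 of 12176 tested genes (891 higher, 1009 lower). It called 3 of 37 tested members, a smaller share than over all tested genes. These were Gpam higher (adjusted p = 0.000275), Msmo1 lower (adjusted p = 0.00185) and Nsdhl lower (adjusted p = 0.00903). Of the other genes named it also called Smpdl3a lower (adjusted p = 0.0101) and Acadvl higher (adjusted p = 0.00993). That fit has 1 residual degree of freedom and a prior of 91.3, against 2 and 3.83 in the main fit. Its SEs therefore come mostly from a spread shared over genes. The SE of Gpam was 0.139 with the block and 0.276 in the main fit.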
